A study of Homo sapiens with 12 samples.

Results

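Integrator and the cleavage and polyadenylation machinery are the protein complexes that cut nascent RNA at the 3′ end of RNA polymerase II transcripts. Their genes were taken from the deposited expression table of MOLT4 cells, a human T-cell acute lymphoblastic leukaemia line, as every symbol that begins with INTS, CPSF or CSTF followed by a digit, together with PCF11, CLP1, NUDT21, FIP1L1, WDR33, SYMPK, PAPOLA, PAPOLG, PABPN1 and XRN2, and without hyphenated names. This gave 33 genes of 23619 gene names. Of these, 32 averaged at least 1 FPKM across all 12 libraries and were tested among 11379 such genes. The exception was CPSF4L, a CPSF4-like gene, at 0.0898 to 0.118 FPKM in every library, close to the value of 0.0910 to 0.104 FPKM that 4201 names share in each library. The cells had been treated for 6 h with 250 nM SNS-032, 250 nM THAL-SNS-032, 250 nM NVP-2 or the solvent, 0.1% DMSO, and each group held 3 libraries. SNS-032 is an inhibitor of several cyclin-dependent kinases, THAL-SNS-032 is a degrader of CDK9 made from it, and NVP-2 inhibits CDK9. Nothing in the labels ties the 3 libraries of a group to separate cultures, so the p-values reflect no more than the spread between libraries, which may be technical.

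CDK9, as part of P-TEFb, phosphorylates the tail of RNA polymerase II and its elongation factors and so releases paused polymerase into the gene body. At the end of a protein-coding gene, CPSF reads the polyadenylation signal and its nuclease CPSF3 cuts the RNA. CstF and CF I bind sequence elements beside the cut, CF II joins cleavage to termination, a poly(A) polymerase adds the tail, and the exonuclease XRN2 degrades the RNA left on the polymerase. Integrator, whose nuclease is a relative of CPSF3, cuts small nuclear RNAs and also nascent transcripts close to promoters, and it carries a phosphatase that opposes CDK9.

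FPKM is a read count scaled by transcript length and library, here on a scale the authors set across libraries. ERCC spike-in RNAs were added at cell lysis. The median deviation of the spike-ins from their DMSO means lay between -0.027 and 0.038 in each library on the log2(FPKM + 1) scale. On that scale, the median tested gene lay -2.32, -1.68 and -1.77 from its DMSO mean in the SNS-032 libraries, -1.96, -1.80 and -1.94 in the THAL-SNS-032 libraries and -2.61, -2.45 and -2.55 in the NVP-2 libraries. SNS-032 replicate 1 thus stood below the other two of its group. The spike-ins were tied to lysed material, and fewer cells and less RNA per cell cannot be told apart in these bulk samples. Changes are therefore given on the deposited scale and, where said to be centred, also after each library was shifted to a common median. Centring turned the median change over all tested genes to 0.25 under SNS-032, 0.36 under THAL-SNS-032 and 0.42 under NVP-2. On the deposited scale it was -1.92 under SNS-032, -1.90 under THAL-SNS-032 and -2.54 under NVP-2. A centred value above 0 therefore need not be a smaller fall than that of the median gene. All 16 T-lineage markers examined reached 1 FPKM in the DMSO libraries. Of 18 markers of other cell types, 15 averaged under 1 FPKM in DMSO. The summed level of all 18 was 8.33 to 15.2 FPKM with SNS-032, 17.0 to 19.7 FPKM with THAL-SNS-032, 7.69 to 9.10 FPKM with NVP-2 and 32.9 to 34.2 FPKM in DMSO. Against this direction, the myeloid markers MPO and LYZ averaged 1.68 and 1.44 FPKM with THAL-SNS-032, against 0.127 and 0.272 FPKM in DMSO, and CD14 averaged 2.09 FPKM with SNS-032 and 1.63 FPKM with THAL-SNS-032, against 0.413 FPKM in DMSO. The other myeloid markers, CD33 and CSF1R, averaged 0.0993 and 0.1115 FPKM with THAL-SNS-032, against 0.103 and 0.107 FPKM in DMSO. The highest of the 18 in DMSO were PECAM1 (19.7 FPKM), CD79A (9.07 FPKM) and KRT8 (1.39 FPKM), which were lower with each compound. The part of these markers in the results was not tested. The table holds no counts, so the depth behind each value is unknown.

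RNA of nearly every factor fell with each compound, as did that of nearly every other gene. With SNS-032, 31 of the 32 factors were lower than in DMSO at an adjusted p under 0.05, where 94.6% of all tested genes were called lower and 1.54% higher (limma on log2(FPKM + 1), Benjamini-Hochberg adjusted over all tested genes). With THAL-SNS-032 all 32 were lower, where 94.8% of all genes were lower and 1.37% higher. NVP-2 lowered all 32, where 97.1% of all genes were lower and 0.448% higher. None was called higher by limma in these 3 comparisons, which share the DMSO libraries, and none rose at an unadjusted p under 0.05. The median change was -2.38 for the factors under SNS-032, -2.28 under THAL-SNS-032 and -2.90 under NVP-2 on the log2(FPKM + 1) scale. The share of factors that fell is close to that of all genes, so what differs among them is the size of the change. That size ran between -3.55 for CPSF3 and -0.17 for PCF11 with SNS-032, between -4.58 for CSTF1 and -0.78 for CPSF1 with THAL-SNS-032, and between -5.74 for CSTF1 and -1.39 for CPSF1 with NVP-2. After centring, 13 factors were higher and 18 lower with SNS-032 (52.6% and 31.1% of all genes), 13 higher and 13 lower with THAL-SNS-032 (57.2% and 29.2%), and 14 higher and 15 lower with NVP-2 (59.7% and 28.1%).

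**Figure D1:**
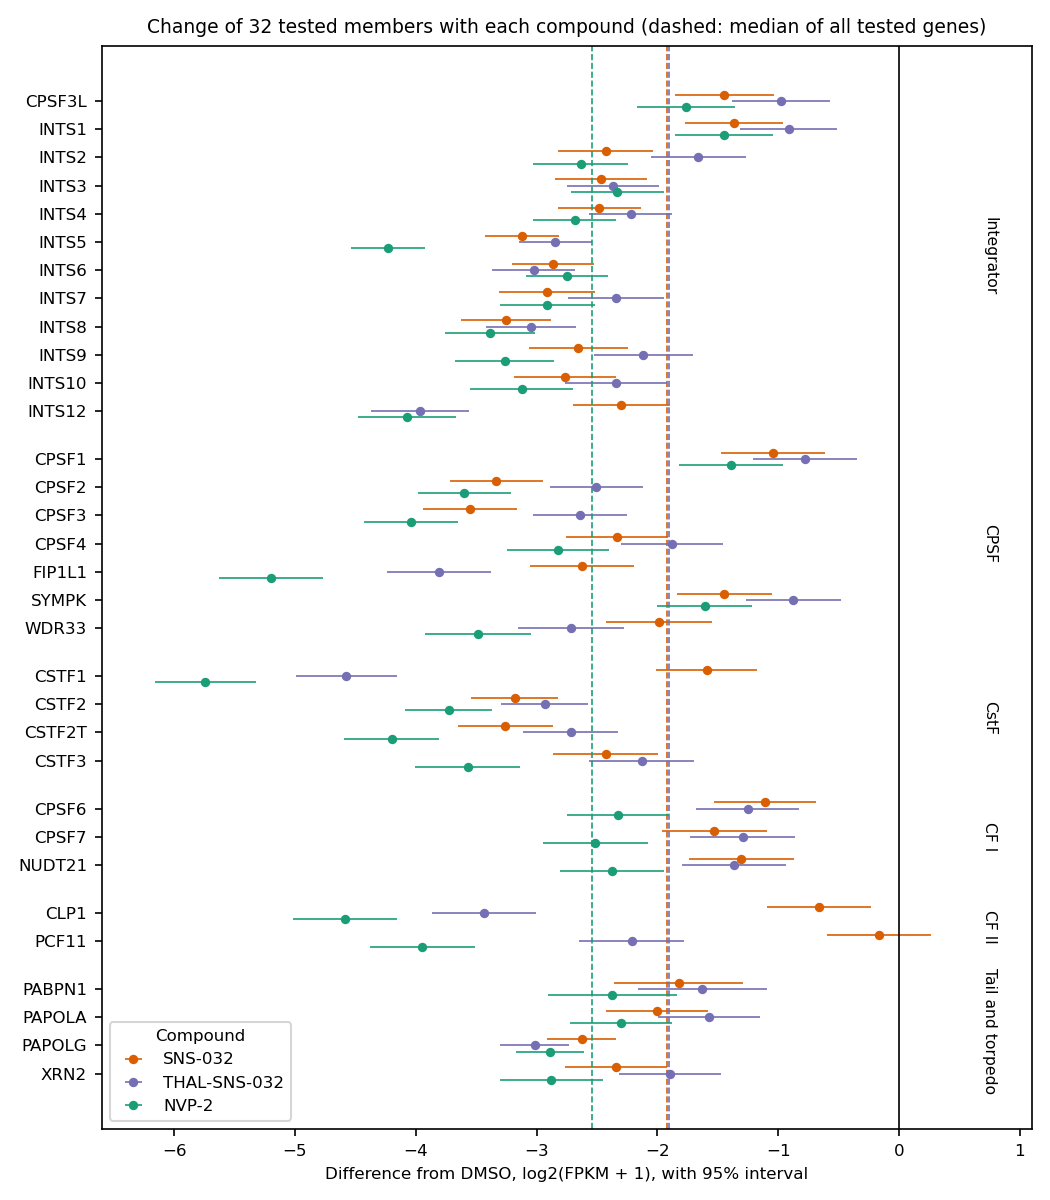
Difference from DMSO of the 32 tested factors, in log2(FPKM + 1) with 95% intervals, for each of the 3 compounds (3 libraries a group), ordered by complex; dashed lines mark the median of all tested genes. The 3 points of CSTF1, CLP1 and PCF11 lie far apart, whereas those of INTS3, INTS6 and INTS8 lie close together.

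Of the 12 Integrator subunits, all 12 were lower with each compound, with medians of -2.57 under SNS-032, -2.34 under THAL-SNS-032 and -2.83 under NVP-2. After centring 2 of them were higher under SNS-032 (52.6% of all genes), 4 under THAL-SNS-032 (57.2%) and 6 under NVP-2 (59.7%). In DMSO their mean levels ran between 21.5 FPKM for INTS6 and 113 FPKM for INTS10. CPSF3L, the older symbol of the Integrator nuclease INTS11, had 21.3, 35.0 and 33.1 FPKM in the SNS-032 libraries, 36.4, 44.5 and 41.6 FPKM in the THAL-SNS-032 libraries, 22.6, 25.6 and 21.5 FPKM in the NVP-2 libraries and 72.4, 84.2 and 87.6 FPKM in the DMSO libraries. All treated libraries lay below all DMSO libraries, yet its fall was among the smaller ones: -1.45 ± 0.19 under SNS-032, -0.98 ± 0.19 under THAL-SNS-032 and -1.76 ± 0.19 under NVP-2 (log2 change ± SE), against 0.72 under SNS-032, 1.28 under THAL-SNS-032 and 1.20 under NVP-2 after centring.

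INTS1, the largest subunit, behaved in the same manner. It had 9.63, 16.1 and 15.9 FPKM with SNS-032, 17.7, 20.7 and 18.4 FPKM with THAL-SNS-032, 12.4, 13.7 and 12.02 FPKM with NVP-2 and 31.9, 36.8 and 41.2 FPKM in DMSO, with no overlap between treated and DMSO libraries. Its changes were -1.37 under SNS-032 (0.81 after centring), -0.91 under THAL-SNS-032 (1.34 after centring) and -1.45 under NVP-2 (1.51 after centring), and CPSF3L and INTS1 were the only Integrator subunits whose fall was smaller than that of the median gene with all 3 compounds.

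INTS6, through which Integrator binds the phosphatase PP2A, had 1.43, 2.29 and 2.69 FPKM with SNS-032, 1.66, 2.09 and 1.55 FPKM with THAL-SNS-032, 2.01, 2.56 and 2.48 FPKM with NVP-2 and 20.7, 21.8 and 21.8 FPKM in DMSO. The 3 treated groups overlapped each other and lay far below DMSO, at changes of -2.86 under SNS-032, -3.03 under THAL-SNS-032 and -2.75 under NVP-2. INTS8, which also contacts the phosphatase, had 3.75, 6.37 and 6.44 FPKM with SNS-032, 6.02, 7.21 and 6.03 FPKM with THAL-SNS-032, 4.72, 4.81 and 4.96 FPKM with NVP-2 and 55.9, 60.1 and 64.1 FPKM in DMSO. INTS8 changed by -3.26 under SNS-032, -3.04 under THAL-SNS-032 and -3.39 under NVP-2. INTS3, also a subunit of the SOSS DNA-repair complex, changed by -2.47 under SNS-032, -2.37 under THAL-SNS-032 and -2.33 under NVP-2. No difference between compounds was called for these 3 genes; without SNS-032 replicate 1, INTS6 was lower under THAL-SNS-032 than under SNS-032 (-0.34) and than with NVP-2 (-0.28), and INTS8 was lower with NVP-2 than with the other compounds (SNS-032 over NVP-2 0.35, THAL-SNS-032 over NVP-2 0.34). The NVP-2 changes of INTS6 and INTS3 turn to 0.21 and 0.63 after centring. Centring also gave calls between compounds for all 3 genes. Against NVP-2 they were lower with SNS-032 (INTS3 -0.93, INTS6 -0.90 and INTS8 -0.66) and with THAL-SNS-032 (INTS3 -0.74, INTS6 -0.98 and INTS8 -0.36), and under THAL-SNS-032 INTS3 (0.19) and INTS8 (0.30) were higher than under SNS-032.

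INTS5 and INTS12 separated the compounds. INTS5, which forms a unit with INTS8, had 1.25, 2.33 and 1.94 FPKM with SNS-032, 2.30, 2.45 and 2.42 FPKM with THAL-SNS-032, 0.272, 0.348 and 0.270 FPKM with NVP-2 and 22.1, 23.6 and 24.4 FPKM in DMSO. The NVP-2 libraries were lowest, without overlap with any other group (-4.23 ± 0.14; adjusted p = 3.86e-12, limma). INTS12, a small subunit with a PHD finger, had 6.69, 12.8 and 11.2 FPKM with SNS-032, 2.15, 2.59 and 2.58 FPKM with THAL-SNS-032, 2.31, 2.40 and 1.89 FPKM with NVP-2 and 50.6, 54.4 and 52.9 FPKM in DMSO. Here the THAL-SNS-032 and NVP-2 libraries overlapped and the SNS-032 libraries lay above both. The changes of INTS12 from DMSO were -2.30 under SNS-032, -3.96 under THAL-SNS-032 and -4.07 under NVP-2. The other 5 subunits changed by between -3.26 and -1.66. They were INTS2 and INTS7 of the backbone, INTS4 and INTS9, which form the cleavage module with the nuclease, and INTS10, which works in a module with INTS13 and INTS14.

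The 7 tested genes of CPSF and its scaffold all fell with each compound, with medians of -2.33 under SNS-032, -2.51 under THAL-SNS-032 and -3.48 under NVP-2. After centring 3 were higher and 4 lower with each, where 52.6% to 59.7% of all genes were higher and 28.1% to 31.1% lower. CPSF3, the nuclease, had 7.52, 13.5 and 11.5 FPKM with SNS-032, 20.2, 22.2 and 19.99 FPKM with THAL-SNS-032, 6.70, 7.72 and 7.31 FPKM with NVP-2 and 127, 138 and 140 FPKM in DMSO. The THAL-SNS-032 libraries were the highest of the treated ones and did not overlap the other 2 compounds. CPSF3 changed by -3.55 ± 0.18 with SNS-032, by -2.64 ± 0.18 with THAL-SNS-032 and by -4.04 ± 0.18 with NVP-2. The first was the largest fall of the 32 factors under SNS-032 on the log2(FPKM + 1) scale. By mean FPKM, INTS5 fell slightly further there (12.7-fold, against 12.4-fold for CPSF3). After centring the changes of CPSF3 were -1.38 under SNS-032, -0.38 under THAL-SNS-032 and -1.08 under NVP-2. CPSF2, the catalytically inactive partner of CPSF3, had 4.53, 7.74 and 7.88 FPKM with SNS-032, 11.7, 13.7 and 11.9 FPKM with THAL-SNS-032, 4.90, 5.48 and 5.50 FPKM with NVP-2 and 69.9, 76.3 and 79.5 FPKM in DMSO. It showed the same order of groups, with changes of -3.34 under SNS-032, -2.51 under THAL-SNS-032 and -3.60 under NVP-2.

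The RNAs of the nucleases of the 2 complexes therefore changed places in level. CPSF3 lay above CPSF3L in DMSO by a log2 ratio of FPKM of 0.73 ± 0.072 and below it in every treated group, by -1.46 ± 0.080 under SNS-032, -0.97 ± 0.11 under THAL-SNS-032 and -1.68 ± 0.11 under NVP-2 (SD, n = 3 each). A ratio within a library does not depend on the scale between libraries.

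CPSF1, the largest CPSF subunit, and SYMPK, the symplekin scaffold, kept a larger share of their DMSO level than the other 5 CPSF genes with each compound. CPSF1 had 42.0, 70.9 and 69.8 FPKM with SNS-032, 67.1, 77.7 and 70.1 FPKM with THAL-SNS-032, 45.4, 51.1 and 42.7 FPKM with NVP-2 and 108, 129 and 134 FPKM in DMSO. No treated library reached the lowest DMSO library, and the group means were 49.3% under SNS-032, 58.0% under THAL-SNS-032 and 37.5% under NVP-2 of DMSO. SYMPK had 16.1, 25.1 and 26.2 FPKM with SNS-032, 32.8, 35.1 and 31.7 FPKM with THAL-SNS-032, 18.6, 21.6 and 18.6 FPKM with NVP-2 and 54.8, 63.9 and 66.7 FPKM in DMSO. Its means were 36.3% under SNS-032, 53.6% under THAL-SNS-032 and 31.7% under NVP-2 of DMSO. On the log2 scale CPSF1 changed by -1.04 under SNS-032 (1.13 after centring), -0.78 under THAL-SNS-032 (1.48 after centring) and -1.39 under NVP-2 (1.57 after centring) and SYMPK by -1.45 under SNS-032 (0.72 after centring), -0.88 under THAL-SNS-032 (1.38 after centring) and -1.61 under NVP-2 (1.35 after centring).

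FIP1L1, which links CPSF to the poly(A) polymerase, went the other way between compounds. It had 12.6, 24.6 and 20.4 FPKM with SNS-032, 7.10, 8.64 and 7.19 FPKM with THAL-SNS-032, 2.14, 2.35 and 2.36 FPKM with NVP-2 and 109, 122 and 129 FPKM in DMSO. The 4 groups did not overlap, and the changes were -2.63 under SNS-032, -3.81 under THAL-SNS-032 and -5.20 under NVP-2. WDR33, which reads the polyadenylation signal together with CPSF4, changed by -1.99 under SNS-032, -2.71 under THAL-SNS-032 and -3.48 under NVP-2, in the same order. CPSF4 changed by -2.33 under SNS-032, -1.88 under THAL-SNS-032 and -2.82 under NVP-2. Of the 50-base stretches of the longest annotated FIP1L1 transcript, 45% also occur in another annotated gene, so its values are uncertain where reads could be split.

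In CstF, the complex that binds downstream of the cut, all 4 genes fell with each compound on the deposited scale. After centring 3 were lower under SNS-032 (31.1% of all genes), 3 under THAL-SNS-032 (29.2%) and 4 under NVP-2 (28.1%). CSTF1, the WD-repeat subunit, had 16.4, 32.4 and 26.4 FPKM with SNS-032, 2.33, 2.18 and 2.04 FPKM with THAL-SNS-032, 0.461, 0.404 and 0.396 FPKM with NVP-2 and 67.4, 77.8 and 80.1 FPKM in DMSO. The 4 groups were separate, and the step between SNS-032 and THAL-SNS-032 was the widest of any factor. Its changes from DMSO were -1.59 ± 0.20 under SNS-032, -4.58 ± 0.20 under THAL-SNS-032 and -5.74 ± 0.20 under NVP-2, of which those with THAL-SNS-032 and NVP-2 were the largest of the 32 factors.

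The other 3 CstF genes had another order of groups than CSTF1. CSTF2, which binds the RNA, had 3.18, 5.44 and 5.23 FPKM with SNS-032, 5.19, 6.38 and 5.18 FPKM with THAL-SNS-032, 2.64, 2.96 and 2.76 FPKM with NVP-2 and 46.8, 49.0 and 51.5 FPKM in DMSO. Its intronless paralogue CSTF2T had 2.62, 5.27 and 4.50 FPKM with SNS-032, 5.91, 6.88 and 6.05 FPKM with THAL-SNS-032, 1.41, 1.61 and 1.81 FPKM with NVP-2 and 42.6, 47.1 and 51.3 FPKM in DMSO. For CSTF2 the SNS-032 and THAL-SNS-032 libraries overlapped, and for CSTF2T they did not. The paralogues were level in DMSO, at a log2 ratio of CSTF2 to CSTF2T of 0.066 ± 0.066, and the ratio was 0.18 ± 0.12 under SNS-032, -0.17 ± 0.057 under THAL-SNS-032 and 0.80 ± 0.17 under NVP-2 (SD, n = 3 each). CSTF3, the subunit that holds the complex together, had 17.3, 33.3 and 26.5 FPKM with SNS-032, 28.9, 32.5 and 31.0 FPKM with THAL-SNS-032, 9.12, 12.3 and 10.9 FPKM with NVP-2 and 136, 136 and 141 FPKM in DMSO. Its NVP-2 libraries lay below all others, with changes of -2.43 under SNS-032, -2.13 under THAL-SNS-032 and -3.57 under NVP-2.

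The 3 genes of CF I, which binds UGUA elements and sets the choice of polyadenylation site, fell less than the median gene with each compound. CPSF7 with NVP-2 stood at percentile 51.0 of the change, close to the median gene. After centring all 3 were called higher with each compound, as were 52.6% of all tested genes under SNS-032, 57.2% under THAL-SNS-032 and 59.7% under NVP-2. NUDT21, its RNA-binding subunit, had 48.3, 86.2 and 80.9 FPKM with SNS-032, 63.6, 72.7 and 63.9 FPKM with THAL-SNS-032, 30.3, 35.9 and 31.9 FPKM with NVP-2 and 161, 179 and 182 FPKM in DMSO. The SNS-032 and THAL-SNS-032 libraries overlapped, and NVP-2 lay below both. Its changes were -1.31 under SNS-032 (0.87 after centring), -1.37 under THAL-SNS-032 (0.89 after centring) and -2.38 under NVP-2 (0.59 after centring). CPSF6, the larger partner that carries the arginine-serine domain, had 25.1, 45.3 and 40.4 FPKM with SNS-032, 31.1, 35.2 and 30.9 FPKM with THAL-SNS-032, 13.7, 16.2 and 14.7 FPKM with NVP-2 and 73.0, 77.2 and 85.9 FPKM in DMSO. CPSF6 changed by -1.11 under SNS-032, -1.25 under THAL-SNS-032 and -2.33 under NVP-2 and its paralogue CPSF7 by -1.53 under SNS-032, -1.29 under THAL-SNS-032 and -2.52 under NVP-2.

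CF II, made of PCF11 and CLP1, differed widely between compounds. PCF11, which binds the tail of the polymerase and dismantles it from the template, had 19.9, 37.6 and 32.5 FPKM in the SNS-032 libraries, 5.68, 7.57 and 5.67 FPKM in the THAL-SNS-032 libraries, 1.06, 1.37 and 1.12 FPKM in the NVP-2 libraries and 30.4, 32.5 and 35.1 FPKM in the DMSO libraries. With SNS-032, 2 libraries lay within or above the DMSO range and only replicate 1 lay below it, whereas the other compounds lay far below DMSO. PCF11 was the single factor not called with SNS-032, at -0.17 with a 95% interval of -0.60 to 0.27 (adjusted p = 0.432, limma); leaving out any 1 library gave values between -0.35 and 0.095, none called. It changed by -2.21 with THAL-SNS-032 (adjusted p = 5.07e-08) and by -3.95 with NVP-2 (adjusted p = 5.25e-11).

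CLP1, an RNA kinase that also works in tRNA splicing, had 11.6, 22.4 and 20.2 FPKM with SNS-032, 1.54, 1.99 and 1.58 FPKM with THAL-SNS-032, 0.170, 0.133 and 0.346 FPKM with NVP-2 and 24.6, 30.0 and 30.3 FPKM in DMSO. The groups were again separate, and the NVP-2 libraries came near the lowest values in the table, so the change of -4.59 there understates the ratio. CLP1 changed by -0.67 ± 0.20 with SNS-032, a smaller fall than for 93.0% of tested genes, and by -3.44 ± 0.20 with THAL-SNS-032, where 6.995% of genes fell further. After centring, PCF11 and CLP1 were 2.01 and 1.51 higher with SNS-032, 0.04 and -1.18 with THAL-SNS-032, and -0.99 and -1.63 with NVP-2.

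The windows upstream of PCF11, CLP1 and CSTF1, the factors whose fall depended most on the compound, are shown with that of CPSF3, which had the opposite order of SNS-032 and THAL-SNS-032. These 4 were chosen after their values were seen. Each is the 250 bases before the RefSeq start on GRCh38.p14, all on the + strand: PCF11 at chr11:83156881-83157130, CLP1 at chr11:57657512-57657761, CSTF1 at chr20:56392129-56392378 and CPSF3 at chr2:9423404-9423653. Capitals mark the letters of the motifs searched on both strands, CCGGAAG (ETS factors), CCAAT and GGGCGG (GC box).
PCF11: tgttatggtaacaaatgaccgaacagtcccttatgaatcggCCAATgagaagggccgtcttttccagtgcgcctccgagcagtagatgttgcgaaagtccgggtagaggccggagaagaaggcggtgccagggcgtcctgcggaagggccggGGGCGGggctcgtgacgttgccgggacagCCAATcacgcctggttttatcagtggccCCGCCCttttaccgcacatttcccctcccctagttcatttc
CLP1: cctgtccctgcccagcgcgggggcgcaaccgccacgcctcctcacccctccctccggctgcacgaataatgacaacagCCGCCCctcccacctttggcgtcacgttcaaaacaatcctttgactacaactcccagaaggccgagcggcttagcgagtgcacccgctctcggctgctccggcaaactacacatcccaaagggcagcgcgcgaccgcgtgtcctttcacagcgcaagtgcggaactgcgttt
CSTF1: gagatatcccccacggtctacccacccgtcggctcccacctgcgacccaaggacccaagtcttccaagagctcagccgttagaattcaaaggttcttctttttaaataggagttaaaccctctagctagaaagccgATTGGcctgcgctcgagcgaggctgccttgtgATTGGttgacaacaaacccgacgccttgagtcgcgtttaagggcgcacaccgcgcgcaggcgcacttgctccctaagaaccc
CPSF3: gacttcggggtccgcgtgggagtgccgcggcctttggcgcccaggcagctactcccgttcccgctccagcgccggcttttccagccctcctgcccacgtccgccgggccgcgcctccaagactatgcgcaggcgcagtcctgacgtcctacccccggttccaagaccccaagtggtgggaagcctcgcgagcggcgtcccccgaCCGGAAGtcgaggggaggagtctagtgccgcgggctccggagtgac

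PCF11 holds CCAAT starting 209 and 69 bases before the start and GC box letters at 98 and 41 bases. CLP1 holds 1 GC box on the reverse strand at 172 bases, CSTF1 holds CCAAT on the reverse strand at 114 and 82 bases, and CPSF3 holds CCGGAAG at 46 bases. Windows were found for 27 of the 32 tested factors. The 27305 promoters set beside them were not limited to tested genes, so these shares are not like for like. CCGGAAG was in 9 of the 27 (33.3%), against 8.82% of 27305 promoters, GGGCGG in 18 (66.7%) against 42.3%, CCAAT in 12 (44.4%) against 33%, and CACGTG, the E box, in 2 (7.41%) against 6.49%. TATAAA was in 0 of the 27 against 11.1%, and the NRF1 motif in 0 against 1.13%. Among the 7 factors lower under THAL-SNS-032 than under SNS-032, CCGGAAG was in 0, GGGCGG in 5 and CCAAT in 2. The median GC content was 62.8% in the 27 windows, against 58% in all promoters, and across the 27 its Spearman correlation with the change from DMSO was 0.20 under SNS-032, 0.473 under THAL-SNS-032 and 0.516 under NVP-2, where the points share all libraries. These are letter matches and descriptions across genes.

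**Figure D2:**
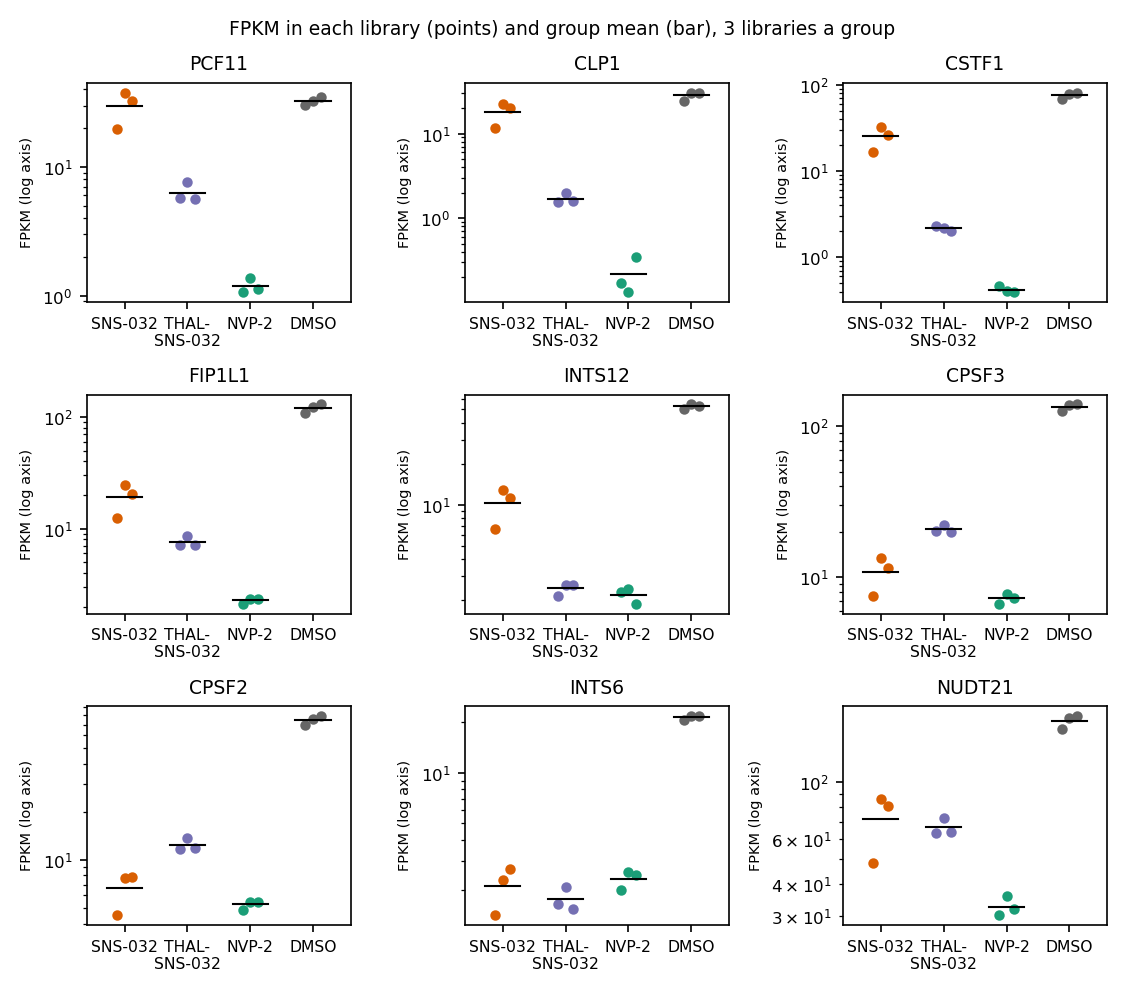
FPKM of 9 factors in each library on log axes, whose ranges differ between panels, with group means as bars, for SNS-032, THAL-SNS-032, NVP-2 and DMSO (3 libraries each). The PCF11 libraries with SNS-032 lie on both sides of those in DMSO, CSTF1, CLP1, FIP1L1 and INTS12 lie lower under THAL-SNS-032 than under SNS-032, and CPSF3 and CPSF2 lie higher.

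The tail enzymes and XRN2 fell with each compound. After centring 2 of the 4 were higher under SNS-032 (52.6% of all genes), 3 under THAL-SNS-032 (57.2%) and 2 under NVP-2 (59.7%). PAPOLA, the main nuclear poly(A) polymerase, had 27.3, 47.1 and 45.4 FPKM with SNS-032, 49.9, 57.3 and 50.9 FPKM with THAL-SNS-032, 28.7, 34.5 and 31.4 FPKM with NVP-2 and 148, 158 and 170 FPKM in DMSO. All treated libraries lay below DMSO, with changes of -2.001 under SNS-032, -1.57 under THAL-SNS-032 and -2.30 under NVP-2. Its paralogue PAPOLG fell to 1.03 ± 0.31 FPKM with SNS-032, 0.538 ± 0.051 FPKM with THAL-SNS-032 and 0.683 ± 0.087 FPKM with NVP-2, against 11.5 ± 1.13 FPKM in DMSO (SD, n = 3 each). The log2 ratio of PAPOLA to PAPOLG was accordingly wider in treated cells, at 5.29 under SNS-032, 6.61 under THAL-SNS-032 and 5.53 under NVP-2, against 3.79 in DMSO.

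XRN2, the exonuclease of the torpedo model of termination, had 22.6, 39.5 and 38.4 FPKM with SNS-032, 42.5, 46.9 and 44.7 FPKM with THAL-SNS-032, 20.2, 24.3 and 21.9 FPKM with NVP-2 and 156, 170 and 182 FPKM in DMSO. It changed by -2.34 under SNS-032, -1.89 under THAL-SNS-032 and -2.88 under NVP-2, and its THAL-SNS-032 libraries did not overlap those of the other compounds. PABPN1, the nuclear poly(A)-binding protein, had 9.73, 21.7 and 17.3 FPKM with SNS-032, 16.7, 20.0045 and 17.0 FPKM with THAL-SNS-032, 10.6, 11.6 and 8.76 FPKM with NVP-2 and 43.9, 59.8 and 71.5 FPKM in DMSO. The treated groups overlapped in part and lay below DMSO, at -1.82 under SNS-032, -1.63 under THAL-SNS-032 and -2.37 under NVP-2. The readthrough gene BCL2L2-PABPN1 shares 20.6% of the 50-base stretches of PABPN1 and was listed at 192 to 216 FPKM in DMSO, so reads could have been split between them and the level of PABPN1 is uncertain. The same holds for INTS4, of which 32.2% recurs elsewhere, mainly in a pseudogene.

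THAL-SNS-032 and SNS-032 were given at the same dose and time, and the factors moved apart in both directions. Against SNS-032, 7 of the 32 factors were lower with THAL-SNS-032 and 7 were higher, where 16.7% of all tested genes were lower and 13.4% higher. The 7 lower were CSTF1, CLP1, PCF11, INTS12, FIP1L1, WDR33 and PAPOLG. Their differences were -2.98 ± 0.20 for CSTF1 (adjusted p = 1.71e-07, limma), -2.77 ± 0.20 for CLP1 (adjusted p = 3.74e-07), -2.05 ± 0.20 for PCF11 (adjusted p = 3.65e-06) and -1.67 ± 0.19 for INTS12 (adjusted p = 1.28e-05). FIP1L1 differed by -1.18, WDR33 by -0.72 and PAPOLG by -0.39. All 7 kept their direction after centring, and the first 5 were called with each of the 12 libraries left out in turn. WDR33 was called in 10 of these 12 fits and lost its call without THAL-SNS-032 replicate 1 or 3 (-0.69 in both), and PAPOLG was called in 4.

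The 7 higher with THAL-SNS-032 were CPSF3 (0.91 ± 0.18; adjusted p = 0.00174, limma), CPSF2 (0.83 ± 0.18), INTS2 of the Integrator backbone (0.77 ± 0.18), SYMPK (0.57 ± 0.18), INTS7 (0.57 ± 0.19), CSTF2T (0.54 ± 0.18) and INTS9 (0.54 ± 0.19), the last being the inactive partner of the Integrator nuclease. Of these, 3 were called with every library left out in turn: CPSF3, CPSF2 and INTS2. SYMPK and INTS7 lost their calls without any 1 of the THAL-SNS-032 libraries, while CSTF2T was called in 3 and INTS9 in 2 of the 12 fits. The number of higher calls was 14 without SNS-032 replicate 2 (24.3% of all genes in that fit), and 3 without any 1 of the 3 THAL-SNS-032 libraries (5.40% to 8.44% of all genes). Differences of all 32 factors had a median of 0.26, beside 0.14 for all tested genes. Centring gave 21 higher and 7 lower factors (51.1% and 23.1% of all genes). It shifts the difference of every gene by the same amount and also changes the spread between libraries. The standard error fell from 0.174 to 0.052 for INTS8 and from 0.198 to 0.048 for XRN2, so more calls do not mean larger differences.

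For 18 factors no difference was called between THAL-SNS-032 and SNS-032. For 23 factors, called or not, the 95% interval lay within 2-fold in either direction, as for 76.9% of all tested genes; this number was 15 without SNS-032 replicate 2 and 14 without SNS-032 replicate 3. INTS3 was one of them, at 0.10 with an interval of -0.28 to 0.48. NUDT21 was another, at -0.06 with an interval of -0.49 to 0.37, but without SNS-032 replicate 1 it was called lower, at -0.32, as was CPSF6 at -0.39. The groups did not overlap for 7 factors that were lower and 11 that were higher, where 15.9% and 25.5% of all tested genes did not overlap in these directions.

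**Figure D3:**
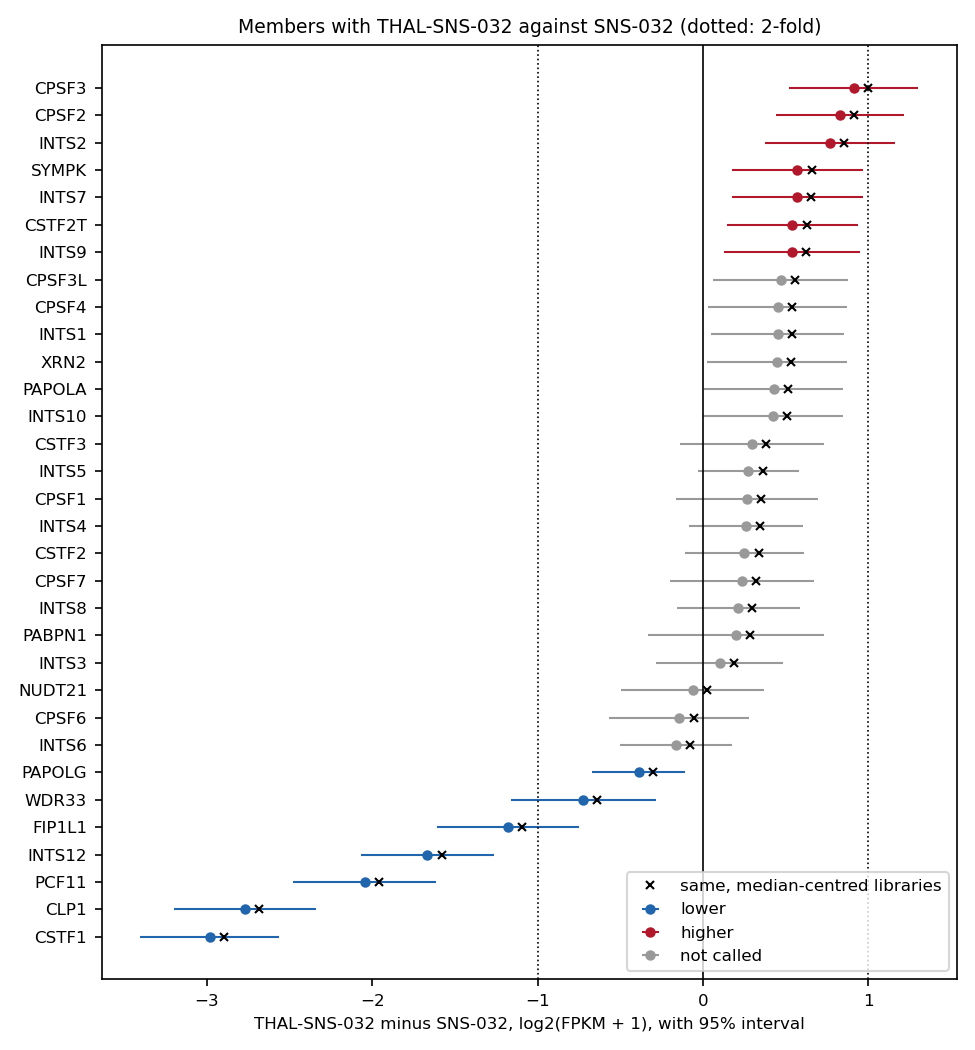
Difference between THAL-SNS-032 and SNS-032 for the 32 tested factors in log2(FPKM + 1), with 95% intervals, ordered by size and coloured by call; crosses give the value after centring and dotted lines mark 2-fold. CSTF1, CLP1, PCF11 and INTS12 lie below the 2-fold line with their whole interval, and no factor lies above it on the other side.

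Against NVP-2, THAL-SNS-032 left most factors at a higher level. It was higher for 27 of the 32, where 70.0% of all tested genes were higher and 0.993% lower, and limma called none lower, also at an unadjusted p under 0.05. On the log2(FPKM + 1) scale the largest differences were 1.73 ± 0.20 for PCF11 (adjusted p = 1.95e-05, limma) and 1.48 ± 0.18 for CSTF2T. CSTF3 with 1.44 ± 0.20 and CPSF3 with 1.40 ± 0.18 came next. By the ratio of mean FPKM another order held, led by INTS5 (8.07), CLP1 (7.86), PCF11 (5.32) and CSTF1 (5.20). CSTF3 and CPSF3 had ratios of 2.86 and 2.87. INTS5, CLP1 and CSTF1 lay under 1 FPKM with NVP-2, where a ratio is uncertain. All CPSF, CstF, CF I and CF II genes tested were among the 27, while 4 of the 5 not called were Integrator subunits: INTS3 (-0.04), INTS6 (-0.28), INTS8 (0.34) and INTS12 (0.11). PAPOLG, at -0.13, was the fifth. INTS6 was called lower when SNS-032 replicate 1 was left out of the joint fit. After centring 16 factors were higher and 8 lower (29.3% and 38.0% of all genes). The interval lay within 2-fold for 8 factors, where it did for 46.4% of all genes.

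SNS-032 was higher than NVP-2 for 17 of the 32 factors, where 52.6% of all tested genes were higher and 0.782% lower; limma called none lower, and none was lower at an unadjusted p under 0.05. On the log2(FPKM + 1) scale CSTF1 led with 4.15 ± 0.20 (adjusted p = 1.77e-09, limma). It was followed by CLP1 with 3.92 ± 0.20, PCF11 with 3.78 ± 0.20 and FIP1L1 with 2.57 ± 0.20. These 4 also kept the largest differences after centring, at 3.36, 3.13, 2.99 and 1.78. By mean FPKM the ratio was larger for CLP1 (83.3) than for CSTF1 (59.7), both of which lay under 1 FPKM with NVP-2. Of the 12 Integrator subunits, INTS12, INTS5 and INTS9 were called higher. Without SNS-032 replicate 1, the library with the lowest values of its group, CPSF3L, INTS1, INTS2, INTS4, INTS8 and INTS10 were called higher as well. INTS9 lost its call without SNS-032 replicate 2 (0.43), SNS-032 replicate 3 (0.53) or NVP-2 replicate 1 (0.58), and turned to -0.18 after centring. The number of factors called higher was 29 without SNS-032 replicate 1, where 81.6% of all genes were higher. It was 12 at the fewest, without SNS-032 replicate 2 or 3 or NVP-2 replicate 1, where 40% to 40.9% of all genes were higher. After centring 12 factors were higher and 19 lower (24.7% and 59.0% of all genes), and 18 factors had an interval within 2-fold, where 57.5% of all genes did.

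In the order of the fitted changes from DMSO, 20 factors had the largest fall with NVP-2, then SNS-032, then THAL-SNS-032, as did 54.0% of all tested genes, and 8 had it with NVP-2, then THAL-SNS-032, then SNS-032, as did 32.6% of all genes. Both neighbouring differences were called for 3 of the 20 (CPSF3, CSTF2T and INTS9) and 5 of the 8. Of all tested genes, 3.17% had the first of these orders with both called, and 9.86% had the second. With each library left out in turn, the SNS-032 against NVP-2 call of CPSF3 held in 6 of 12 fits. The THAL-SNS-032 against SNS-032 call held in 3 of 12 for CSTF2T and 2 of 12 for INTS9. The first order depended on the scale, since after centring it held for 5 factors and 8.72% of all genes. The 4 others were INTS3, INTS6, INTS7 and PAPOLG, each with an order of its own, and for INTS3, INTS6 and PAPOLG no 2 neighbours in that order were called different. Placed among all tested genes, PCF11 stood at percentile 96.2 of the change from DMSO under SNS-032, 36.6 under THAL-SNS-032 and 10.1 under NVP-2, where a low percentile is a larger fall. CSTF1 stood at 65.7 under SNS-032, 0.826 under THAL-SNS-032 and 0.483 under NVP-2, and CPSF3 at 3.56 under SNS-032, 22.8 under THAL-SNS-032 and 8.72 under NVP-2. CPSF1 kept its place at 86.4 under SNS-032, 90.7 under THAL-SNS-032 and 89.9 under NVP-2. The level of a factor in DMSO ran little with its change: the Spearman correlation over the 32 was 0.157 under SNS-032, 0.357 under THAL-SNS-032 and 0.166 under NVP-2, as a description over genes measured in the same libraries.

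**Figure D4:**
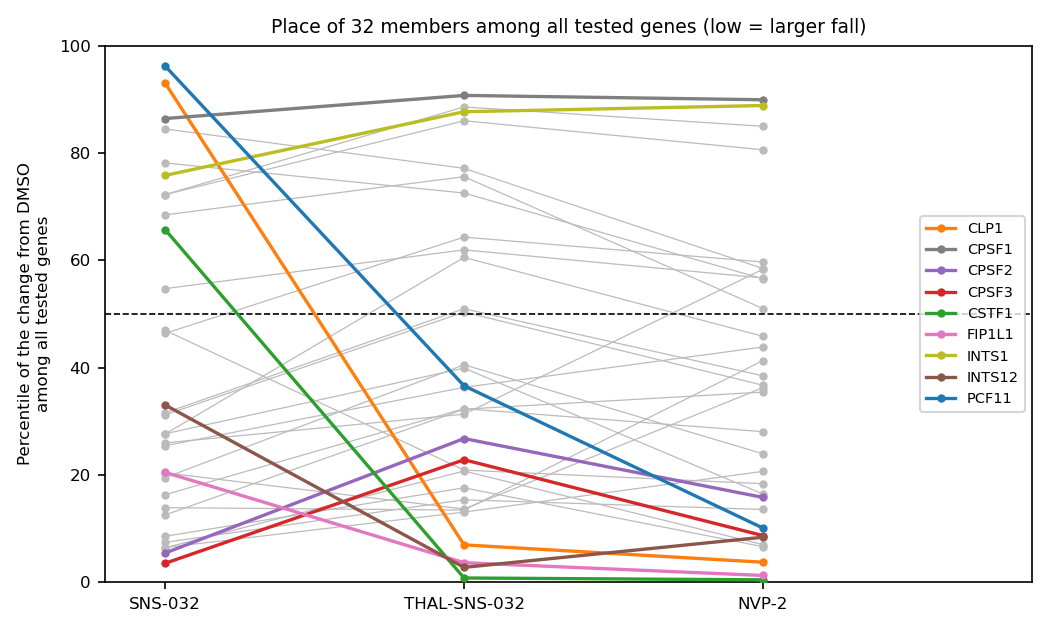
Percentile of each factor's change from DMSO among all tested genes, by compound, with 1 line per factor and 9 of them coloured; the dashed line is the median gene and the 3 comparisons share the DMSO libraries. PCF11, CLP1 and CSTF1 cross from the upper to the lower part, and CPSF1 and INTS1 stay high throughout.

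Genes that work with these complexes were read from 6 lists with 53 tested genes. SNS-032 lowered 52 of the 53, and THAL-SNS-032 or NVP-2 lowered all 53, beside the 94.6% to 97.1% of all tested genes that were lower. Levels were lower under THAL-SNS-032 than under SNS-032 for 19 and higher for 8, with 26 not called, where 16.7% of all genes were lower and 13.4% higher. Among the 7 tested partners of Integrator, all were lower with each compound, and THAL-SNS-032 was lower than SNS-032 for 3 and higher for 1. PPP2CA, the catalytic subunit of the phosphatase that Integrator carries, changed by -0.89 under SNS-032, -2.73 under THAL-SNS-032 and -4.67 under NVP-2, and after centring the first of these turned to 1.28. ASUN, now INTS13, changed by -2.99 under SNS-032, -3.48 under THAL-SNS-032 and -3.94 under NVP-2. VWA9, now INTS14, changed by -2.91 under SNS-032, -2.63 under THAL-SNS-032 and -3.72 under NVP-2.

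The list of termination factors and phosphatases of the polymerase tail held 17 tested genes. All 17 were lower with each compound, as were 94.6% to 97.1% of all tested genes. Under THAL-SNS-032 8 were lower and 3 higher than under SNS-032, where 16.7% of all genes were lower and 13.4% higher. SCAF8, which binds the polymerase tail and restrains early polyadenylation, changed by -1.50 under SNS-032, -3.68 under THAL-SNS-032 and -3.95 under NVP-2. PPP1R10, also called PNUTS, the phosphatase regulator that slows polymerase past the cut site, changed by -4.70 under SNS-032, -4.07 under THAL-SNS-032 and -4.48 under NVP-2. Its partner WDR82 changed by -3.03 under SNS-032, -3.85 under THAL-SNS-032 and -5.82 under NVP-2, and CDKN2AIP, which binds XRN2, by -2.03 under SNS-032, -4.14 under THAL-SNS-032 and -5.15 under NVP-2. The highest-expressed gene of the list, PPP1CA, a catalytic subunit of PP1, changed by -1.80 under SNS-032, -1.50 under THAL-SNS-032 and -2.60 under NVP-2. After centring PPP1CA turned to 0.37 under SNS-032, 0.76 under THAL-SNS-032 and 0.36 under NVP-2, and under SNS-032 SCAF8 turned to 0.67 and CDKN2AIP to 0.14.

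The 7 genes of histone pre-mRNA processing all fell, with 2 lower and 1 higher under THAL-SNS-032 than under SNS-032. For this list and those that follow, 94.6% to 97.1% of all tested genes were lower with a compound. Between THAL-SNS-032 and SNS-032, 16.7% of all genes were lower and 13.4% higher. SLBP, the stem-loop binding protein, changed by -1.90 under SNS-032, -3.46 under THAL-SNS-032 and -5.20 under NVP-2, and was 0.28 under SNS-032 after centring. LSM10, of the U7 particle, changed by -4.14 under SNS-032, -4.32 under THAL-SNS-032 and -5.16 under NVP-2. Of 11 genes for the transcription of small nuclear RNA genes, all were lower with each compound, 4 were lower and 2 higher under THAL-SNS-032 than under SNS-032, and SNAPC2 changed by -3.25 under SNS-032, -3.78 under THAL-SNS-032 and -3.96 under NVP-2. Among 8 genes of the poly(A) tail, PAPD7, a non-canonical poly(A) polymerase named after its values were seen, was not called with SNS-032 at -0.27 (adjusted p = 0.211, limma) but was lower with THAL-SNS-032 at -2.11 and with NVP-2 at -2.62, all of which turned positive after centring (1.91 under SNS-032, 0.15 under THAL-SNS-032 and 0.34 under NVP-2); 2 of the 8 were lower and 1 higher under THAL-SNS-032 than under SNS-032. The 3 protein genes of the U1 particle, which protects nascent RNA from early polyadenylation, fell with each compound on the deposited scale and lay at or above 0 after centring, and no difference between THAL-SNS-032 and SNS-032 was called for them on the deposited scale.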

How the data were processed

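Poly(A) RNA of MOLT4 cells was measured in 12 libraries, 3 for each of SNS-032, THAL-SNS-032, NVP-2 and DMSO, grouped by their labels. Per the labels' protocols, ERCC RNA was added at lysis, poly(A) RNA was selected and a stranded library was made. Per the submitters' processing notes, HISAT, Cufflinks 2.0.0 and hg19 were used; the annotation and any strand setting are not given in the sources used here. The authors deposited FPKM per gene on a scale they set across libraries, in which the median ERCC deviations are close to level. FPKM hold no counts, which leaves depth unknown.

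Of the repeated symbols the first copy was kept, and 92 ERCC entries were removed. Genes averaging 1 FPKM or more were fitted as log2(FPKM + 1) in limma 3.58.1 (R 4.3.3) with trend, without further normalization, over 4 groups with 8 residual degrees of freedom. This gave 6 two-sided comparisons with Benjamini-Hochberg adjustment over all tested genes, called at 0.05. A fold change on this scale understates the change of low genes. Alternatives were a pseudocount of 0.1, no filter, a mean of 5 FPKM, median-centred libraries, equal ERCC medians, a replicate block and each library left out. On data simulated for NVP-2 against DMSO with 11379 genes, the test recovered 19.4% of 1.5-fold, 85.1% of 2-fold and 95.5% of 4-fold changes, with 2 false calls. Each gene was drawn independently around its DMSO mean, and changes were set only in genes above a fixed DMSO level. Shifts shared by all genes of a library were not simulated, so these rates do not cover them.

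The factors and lists were chosen with earlier results of these data known. Library values were given for the 4 factors with the most and the 4 with the least negative change from DMSO, the 4 largest called differences in each pair of compounds, and a fixed set (CPSF3, CPSF3L, INTS6, PCF11, XRN2, CSTF2, CSTF2T, NUDT21, PAPOLA and PABPN1). From each list up to 4 genes with the largest change and the highest-expressed gene could be named. CPSF3L, ASUN and VWA9 were matched to INTS11, INTS13 and INTS14 by RefSeq synonyms. Promoters came from RefSeq on GRCh38.p14 by symbol, and shared stretches from 50-base words of annotated transcripts. Summaries used Python 3.11.15 and figures matplotlib 3.10.9.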

Additional observations from a re-analysis of the deposited data

How the results depend on the processing

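Comparisons with DMSO kept every call of the factors tested under a pseudocount of 0.1, no filter, a mean of 5 FPKM, equal ERCC medians, the replicate block and each library left out, with 0 higher throughout. The number lower was 31 under SNS-032, 32 under THAL-SNS-032 and 32 under NVP-2, except at a mean of 5 FPKM, which leaves PAPOLG untested (30 under SNS-032, 31 under THAL-SNS-032 and 31 under NVP-2), and with no filter, which adds CPSF4L at the floor of the table (32 under SNS-032, 33 under THAL-SNS-032 and 33 under NVP-2). Over the left-out libraries the medians ran from -2.52 to -2.14 under SNS-032, -2.36 to -2.23 under THAL-SNS-032 and -2.97 to -2.82 under NVP-2. A pseudocount of 0.1 moved the median with NVP-2 to -3.18 and THAL-SNS-032 against NVP-2 to 0.98. Expression near the floor of the table limits what can be said of CLP1, CSTF1, INTS5 and PAPOLG.

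Median-centring gave each library the same median. The median change of all tested genes was then 0.25 under SNS-032, 0.36 under THAL-SNS-032 and 0.42 under NVP-2. Among the factors, centring gave 18 lower and 13 higher with a median of -0.21 for SNS-032. It gave 13 and 13 with -0.025 for THAL-SNS-032, and 15 and 14 with 0.062 for NVP-2. Between compounds it gave 21 higher for THAL-SNS-032 against SNS-032, then 8 lower, 16 higher, a median of 0.17 and 29 intervals within 2-fold for THAL-SNS-032 against NVP-2, and 19 lower with a median of -0.28 for SNS-032 against NVP-2. The sign turned for 13 factors with SNS-032 against DMSO: CLP1 1.51, CPSF1 1.13, CPSF3L 0.72, CPSF6 1.06, CPSF7 0.64, CSTF1 0.58, INTS1 0.81, NUDT21 0.87, PABPN1 0.35, PAPOLA 0.17, PCF11 2.01, SYMPK 0.72 and WDR33 0.18. The sign turned for 16 factors with THAL-SNS-032 against DMSO: CPSF1 1.48, CPSF3L 1.28, CPSF4 0.38, CPSF6 1.00, CPSF7 0.96, CSTF3 0.13, INTS1 1.34, INTS2 0.60, INTS4 0.035, INTS9 0.14, NUDT21 0.89, PABPN1 0.63, PAPOLA 0.68, PCF11 0.044, SYMPK 1.38 and XRN2 0.36. The sign turned for 17 factors with NVP-2 against DMSO: CPSF1 1.57, CPSF3L 1.20, CPSF4 0.14, CPSF6 0.63, CPSF7 0.44, INTS1 1.51, INTS2 0.33, INTS3 0.63, INTS4 0.28, INTS6 0.21, INTS7 0.051, NUDT21 0.59, PABPN1 0.59, PAPOLA 0.66, PAPOLG 0.073, SYMPK 1.35 and XRN2 0.083. The sign turned for 6 factors with THAL-SNS-032 against NVP-2: CPSF1 -0.087, INTS1 -0.17, INTS12 -0.60, INTS4 -0.24, INTS7 -0.14 and INTS8 -0.36. The sign turned for 16 factors with SNS-032 against NVP-2: CPSF1 -0.44, CPSF2 -0.53, CPSF3 -0.30, CPSF3L -0.47, CPSF4 -0.30, CSTF2 -0.25, INTS1 -0.71, INTS10 -0.43, INTS2 -0.58, INTS4 -0.59, INTS8 -0.66, INTS9 -0.18, PAPOLA -0.49, PAPOLG -0.53, SYMPK -0.63 and XRN2 -0.25.

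Between THAL-SNS-032 and SNS-032, the higher calls numbered 4 with no filter (6.48% of all genes) and 3 with equal ERCC medians (3.77%). PAPOLG lost its lower call in both settings, and WDR33 lost its own with equal ERCC medians. Both settings also lost the calls of CPSF3, CPSF4 and XRN2 for SNS-032 against NVP-2. For THAL-SNS-032 against NVP-2, PABPN1 lost its call with no filter, and INTS1 and INTS4 with equal ERCC medians. Over the left-out libraries, the lower calls between THAL-SNS-032 and SNS-032 ran from 5 to 10 and the higher from 3 to 14. These fits gave medians of 0.050 to 0.40 and 14 to 26 intervals within 2-fold. For THAL-SNS-032 against NVP-2 they gave 0 to 1 lower, 22 to 28 higher, medians of 0.80 to 0.94 and 6 to 12 intervals. For SNS-032 against NVP-2 they gave 0 lower, 12 to 29 higher, medians of 0.35 to 0.73 and 15 to 20 intervals. Of all tested genes, 5.4% to 24.3% were higher and 13% to 30.1% lower for THAL-SNS-032 against SNS-032 in these fits. The share higher was 57.7% to 80.5% for THAL-SNS-032 against NVP-2 and 40% to 81.6% for SNS-032 against NVP-2. The cause was not tested.

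Gene by gene, deviations of same-numbered libraries had correlations of -0.15 to 0.17 over 18 pairs, 1 of them over 0.1. These correlations leave out a shift common to all genes of a library. The median tested gene lay lowest in replicate 1 of each group, at -2.32 with SNS-032, -1.96 with THAL-SNS-032, -2.61 with NVP-2 and -0.083 in DMSO. Replicate 2 was the highest of each treated group, and replicate 3 was the highest in DMSO. The cause was not tested. With the replicate block, 13 factors were higher under THAL-SNS-032 than under SNS-032. Of all tested genes 20.3% were higher with the block and 13.4% without it. In all, the factors gained 7 calls between compounds, and no other call of theirs changed.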
